A study of Mus musculus with 30 samples.

Results

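The 32 genes described here encode lysosomal hydrolases, their activators, membrane proteins of the lysosome and endosome, subunits of its proton pump, and the transcription factors Tfeb and Mitf. They were chosen by gene symbol from the 23060 symbols of an expression table, and all 32 were present and passed the filter on low values described below. The series has 30 mouse RNA-seq libraries and concerns haematopoietic cells obtained from adult endothelium with the factors Fosb, Gfi1, Runx1 and Spi1, abbreviated FGRS. The FGRS culture group held 3 libraries of cells annotated as derived, titled adherent KLS (Kit+ lineage- Sca1+) at day 28, which had grown together with HUVEC, endothelial cells of the human umbilical vein. The other cells were freshly isolated. LKS-SLAM cells are marrow cells sorted with a gate for haematopoietic stem cells, and gave 3 wild-type control and 3 derived (rEC) libraries. Blood gave 2 control and 2 rEC libraries each of Gr1+ Cd11b+ myeloid cells and of CD4+ T lymphocytes. It gave 3 and 3 libraries each of B220+ B lymphocytes and of CD8+ T lymphocytes. All controls were annotated as wild type and all rEC libraries as derived. Replicate 2 of LKS-SLAM rEC and of B rEC is titled 47G1 primary, so each is 1 clone, while the title secondary is carried by replicate 3 of LKS-SLAM rEC and B rEC, replicate 2 of CD4+ rEC and both of the later CD8+ rEC replicates. LKS-SLAM control replicate 3 and rEC replicate 1 are annotated as long-term stem cells and the other LKS-SLAM libraries as stem cells. The labels do not say that replicates came from separate animals or cultures, so the p-values below measure the spread between these samples, which may be technical. Animal age, host conditioning and the promoters driving the FGRS factors are not given in the sources used here. One further B220+ library could not be placed in a group and entered no comparison.

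Lysosomes are acidic organelles in which proteases, glycosidases and lipases break down material delivered by endocytosis, phagocytosis and autophagy. A proton pump, the V-ATPase, acidifies them, most of their soluble enzymes are delivered from the Golgi by sorting receptors, and the MiT/TFE family of transcription factors, to which Tfeb and Mitf belong, switches on many of their genes through a short DNA element containing CACGTG. Macrophages are rich in lysosomes and make large amounts of cathepsins, B cells and other antigen-presenting cells use some of the same proteases to process antigen for MHC class II, and haematopoietic stem cells are known to hold lysosomes in a comparatively inactive state.

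Promoter windows from RefSeq (GRCm38.p6, 250 bases before to 50 after each gene's start) were matched for 29 of the 32 members, all but Ctsb, Ctsh and Atp6v0d2. A gene with several annotated starts has several windows, which gives it more chances of a match: the 29 members had 36 windows, with 2 each for Ctsa, Lgmn and Psap and 3 each for Tfeb and Mitf. The palindrome CACGTG stood in at least 1 window of 12 of the 29 members (41.4%) and of 8.09% of the 27025 genes in the table. Counted by window, it was in 12 of 36 (33.3%) against 7.15% of 32851. The longer form TCACGTG, searched on both strands and containing CACGTG, was in 10 of the 29 members (34.5%) against 4.29% of genes, and TCATGTG, also on both strands, in 5 members (17.2%; Ctsa, Ctss, Grn, Tpp1 and Ppt1) against 4.31%. The holders of CACGTG were Lamp1, Ctsa, Ctsd, Ctsf, Ctsl, Lgmn, Glb1, Gaa, Naglu, Mcoln1, Atp6v0d1 and Atp6v1a. A match is a string of letters, not evidence of binding. Lamp1 is shown for its 4 copies, Lgmn for the largest rise in the FGRS culture, Ctsf for the only fall there, Glb1, Gaa and Naglu for a pattern shared below, Mcoln1 because it changed in neither main comparison, and Atp6v0d1 because its copy lies next to the start. Capitals mark CACGTG, each line reads 5′ to 3′ on the gene's own strand, and coordinates are those of the stretch printed.
Lamp1, chr8:13159086-13159160, + strand: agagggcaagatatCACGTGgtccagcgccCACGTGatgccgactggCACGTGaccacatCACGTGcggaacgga
Lgmn, chr12:102439124-102439153, - strand: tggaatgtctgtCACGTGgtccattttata
Ctsf, chr19:4855074-4855103, + strand: caccccgtggtcCACGTGcctcgcgtaaat
Glb1, chr9:114401018-114401047, + strand: ctgcttctgagtCACGTGgcctacagaggc
Gaa, chr11:119267811-119267840, + strand: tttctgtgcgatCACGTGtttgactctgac
Naglu, chr11:101070009-101070038, + strand: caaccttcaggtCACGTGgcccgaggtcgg
Mcoln1, chr8:3500436-3500465, + strand: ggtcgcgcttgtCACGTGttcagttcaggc
Atp6v0d1, chr8:105566050-105566079, - strand: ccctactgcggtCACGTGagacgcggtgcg
The first base of the motif lay 79 bases before the RefSeq start in Ctsf, 48 in Glb1, 140 in Gaa, 73 in Naglu, 71 in Mcoln1 and 3 in Atp6v0d1. In Lgmn it lay 49 bases before the more downstream of 2 RefSeq starts, inside the gene as GENCODE annotates it, and the window at the upstream start held no copy. Ctsa likewise held CACGTG in 1 of its 2 windows. Mcoln1 held a further copy, not printed, 45 bases before its RefSeq start. That copy and the one in Naglu also lie inside their genes as GENCODE annotates them. The same holds for the copies, not printed, in Ctsa, Ctsl and Atp6v1a, and for the Ctsd copy nearer to its RefSeq start.

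Levels are given as FPKM, fragments scaled to transcript length and to mapped fragments, which allows levels of different genes to be set side by side. The libraries summed to between 510115 and 727885 FPKM, held 10165 to 12550 genes at 1 FPKM or more, and had between 26 and 31 of the 32 members at that level. Read totals are not used here. The steps between low values gave relative depths of 0.586 to 1.13 between libraries, and low values carry no counting interval. Among the controls and the culture, the sums of B cell, T cell and neutrophil markers were highest in the sorted types they mark. The stem cell marker Ly6a was not, at 65.0 to 108 FPKM in LKS-SLAM controls and 150 to 310 in B cell controls. Summed FPKM of 5 B cell markers was 5794 to 6554 in B cell controls and at most 469.3 in the other control groups and the culture, that of 5 T cell markers was 1342 to 1526 in T cell controls, and that of 10 neutrophil markers was 32006 to 35524 in myeloid controls. The 8 stem cell markers summed to 129 to 179 in the FGRS culture and 550.1 to 596 in LKS-SLAM controls, and 7 of the 8 were lower in the culture. A pair of libraries stood apart from the rest of their cell type. B rEC replicate 1 had a T cell marker sum of 977 against 1.07 to 2.70 in the other B cell libraries, and LKS-SLAM rEC replicate 2 had an erythroid marker sum of 2298 against 30.8 to 1080 in the other LKS-SLAM libraries. In LKS-SLAM rEC replicate 2, Ly6a was at 6.99 FPKM and Slamf1 at 2.46, against at least 65.0 and 9.34 in the other LKS-SLAM libraries. Prg2, a gene outside the marker lists, was at 1863 and 3398 FPKM in LKS-SLAM control replicates 1 and 2. It was at 31.5 in replicate 3, and the source of this spread was not tested. Within the FGRS culture, replicate 1 was the lowest of the 3 libraries for 29 of 32 members (90.6%) and for 35.3% of the 14083 genes tested. Its sum of 12 macrophage markers was 243 FPKM, against 1667 and 1042 in replicates 2 and 3, 210 to 362 in LKS-SLAM controls and 1457 to 1558 in myeloid controls.

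The members made up a larger part of the transcriptome in the FGRS culture and in blood myeloid cells than in marrow stem cells or lymphocytes. Their summed FPKM was 0.579% to 1.13% of each FGRS library's total (mean 0.935% ± 0.309, SD, n = 3) and 1.20% to 1.21% in myeloid controls (1.21% ± 0.00728, SD, n = 2). It was 0.275% ± 0.0160 (SD, n = 3) in LKS-SLAM controls, 0.341% ± 0.0400 in B controls (SD, n = 3), 0.241% ± 0.0275 in CD8+ controls (SD, n = 3) and 0.214% ± 0.0383 in CD4+ controls (SD, n = 2). The lowest FGRS library thus lay above every LKS-SLAM control and below both myeloid controls. In mean level, 17 members were highest in the FGRS culture among the 11 groups, 8 in myeloid controls, and none was lowest in the FGRS culture. Of these 17, only Ctsl, Ctsz, Glb1, Gusb and Atp6v1a did not overlap the group next in order. The share of all genes that were highest in the culture was not counted.

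**Figure D1:**
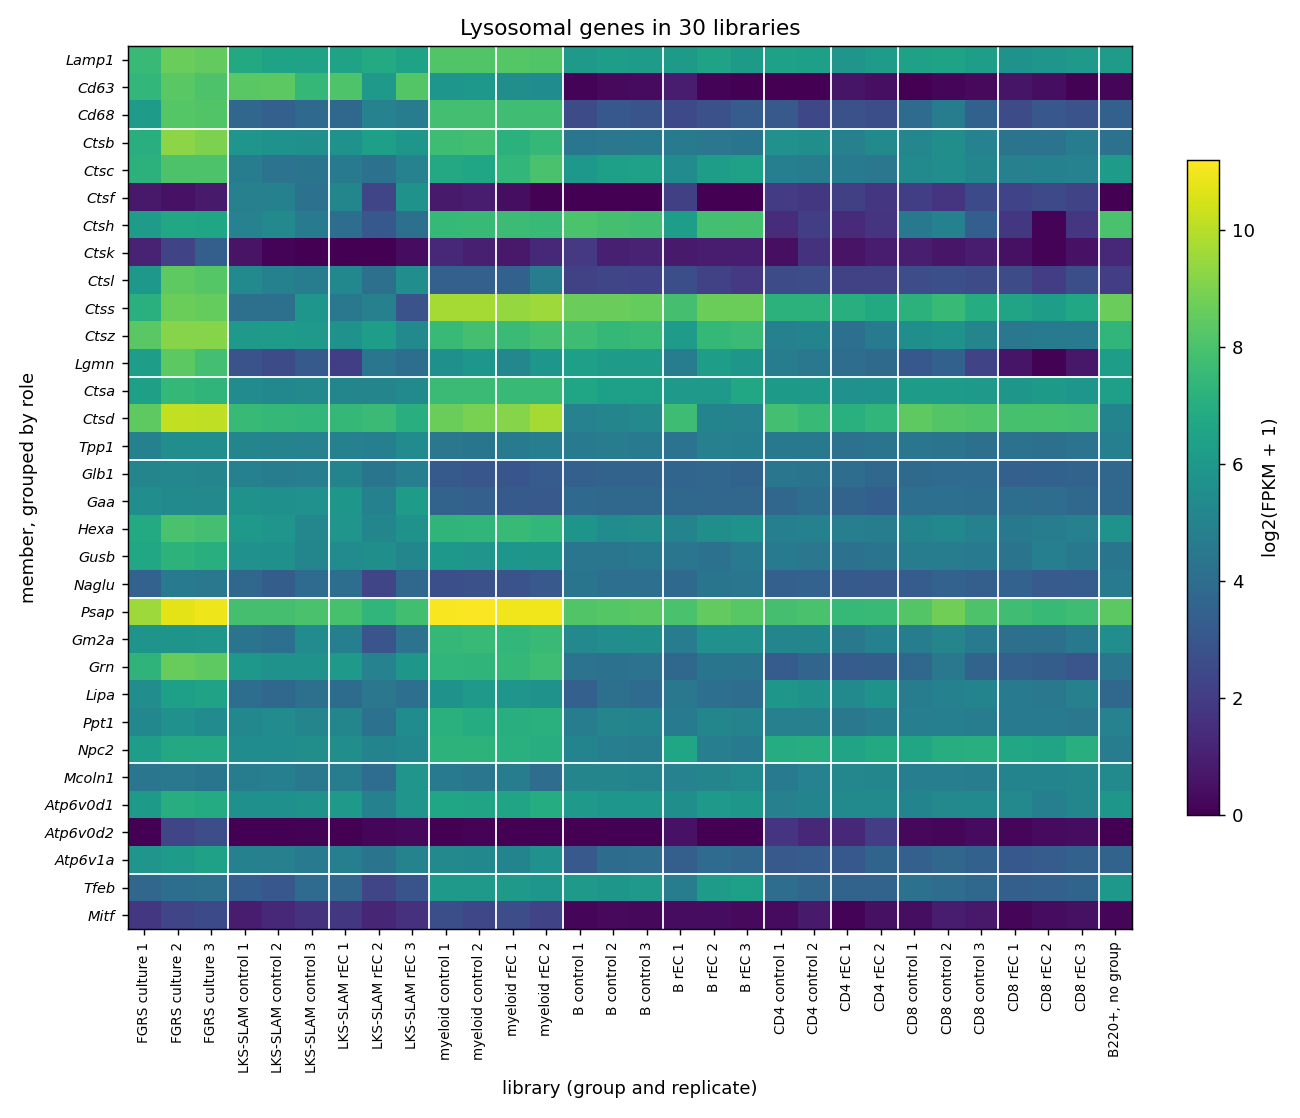
Heat map of log2(FPKM + 1) for the 32 members (rows, grouped by role) in all 30 libraries (columns, by group and replicate; the last column is the ungrouped B220+ library). The FGRS and myeloid columns are brightest for most proteases and for Psap, while Ctsf is brightest in the LKS-SLAM columns and Cd63 is dark in every B and T cell column.

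Against LKS-SLAM controls, the cells the conversion was meant to yield, 23 of the 32 members rose in the FGRS culture, 1 fell (Ctsf) and 8 did not pass the test. The test was limma on log2(FPKM + 1) over all 14083 genes, with Benjamini-Hochberg adjustment at 0.05, two-sided, and 48.8% of all genes passed it in this comparison (17.1% higher, 31.7% lower). The median difference of the members was 1.60, against -0.19 over all genes tested. The 3 FGRS libraries lay wholly above the 3 LKS-SLAM controls for 23 members (22.4% of all genes) and wholly below for 3 (36.2%). By role, 8 of 9 cysteine proteases rose and 1 fell, 5 of 6 lipid-handling enzymes and activators rose, as did 2 of 3 membrane proteins, 2 of 3 other peptidases, 2 of 5 glycosidases, 3 of 4 channel and pump genes and 1 of 2 transcription factors. In bulk libraries, more cells of one type and more RNA per cell cannot be told apart. Members holding CACGTG gave 7 higher, 1 lower and 4 not passed of 12 (median 1.16), and those without it 13 higher and 4 not passed of 17 (median 1.87). Across all genes, 35.1% of the calls were higher in the culture as deposited and 50.7% after quantile normalization, under which the members gave 24 higher and 1 lower. Of the 24 calls, 21 held under every alternative run, none was lost by leaving out a single library, and the exceptions were Ctsh with a pseudocount of 0.1 (adjusted p = 0.0644, limma), Npc2 under quantile normalization (0.0529), and Atp6v0d2 in each fit restricted to these 6 libraries (0.0887 in the one without further terms).

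Against myeloid controls, blood cells that are themselves rich in lysosomal transcripts, 13 members were higher in the FGRS culture, 6 lower and 13 not passed. Of all genes, 58.1% passed (37.8% higher, 20.3% lower, limma, Benjamini-Hochberg). The counts of the members were thus near the shares over all genes and do not set them apart. The median difference was 0.44, against 0.25 over all genes. Groups did not overlap for 11 members in the higher direction (49.4% of all genes) and 8 in the lower (28.3%). The rises were 5 of 9 cysteine proteases, 4 of 5 glycosidases, Cd63, Tpp1, Atp6v0d2 and Atp6v1a. The falls were Ctss, Ctsa, the lipid-handling Psap, Gm2a and Ppt1, and Tfeb. Because the comparison with LKS-SLAM controls uses the same FGRS libraries, the counts of the comparisons are not independent. Of these 19 calls, 8 held under every alternative: Cd63, Ctsl, Glb1, Gaa, Gusb, Gm2a, Ppt1 and Tfeb. Without FGRS replicate 1 there were 17 higher and 3 lower calls, with Ctsa (adjusted p = 0.191, limma), Ctss (0.0791) and Psap (0.23) lost. Without FGRS replicate 2, Lgmn (0.0746) and Ctsk (0.0573) were lost, and without FGRS replicate 3, Ctsk (0.215). Without myeloid control replicate 1, Ctsa (0.097), Ctsk (0.0591), Ctss (0.0551), Ctsz (0.056), Lgmn (0.0816) and Psap (0.0943) were lost, and without myeloid control replicate 2, Ctsa (0.0848), Ctsk (0.162), Ctss (0.0548) and Psap (0.109). Across all genes, 65% of the calls were higher in the FGRS culture as deposited, 50.5% after quantile normalization and 55.7% after upper-quartile scaling, and the members' calls were then 10 higher and 7 lower after the former and 11 higher and 8 lower after the latter.

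**Figure D2:**
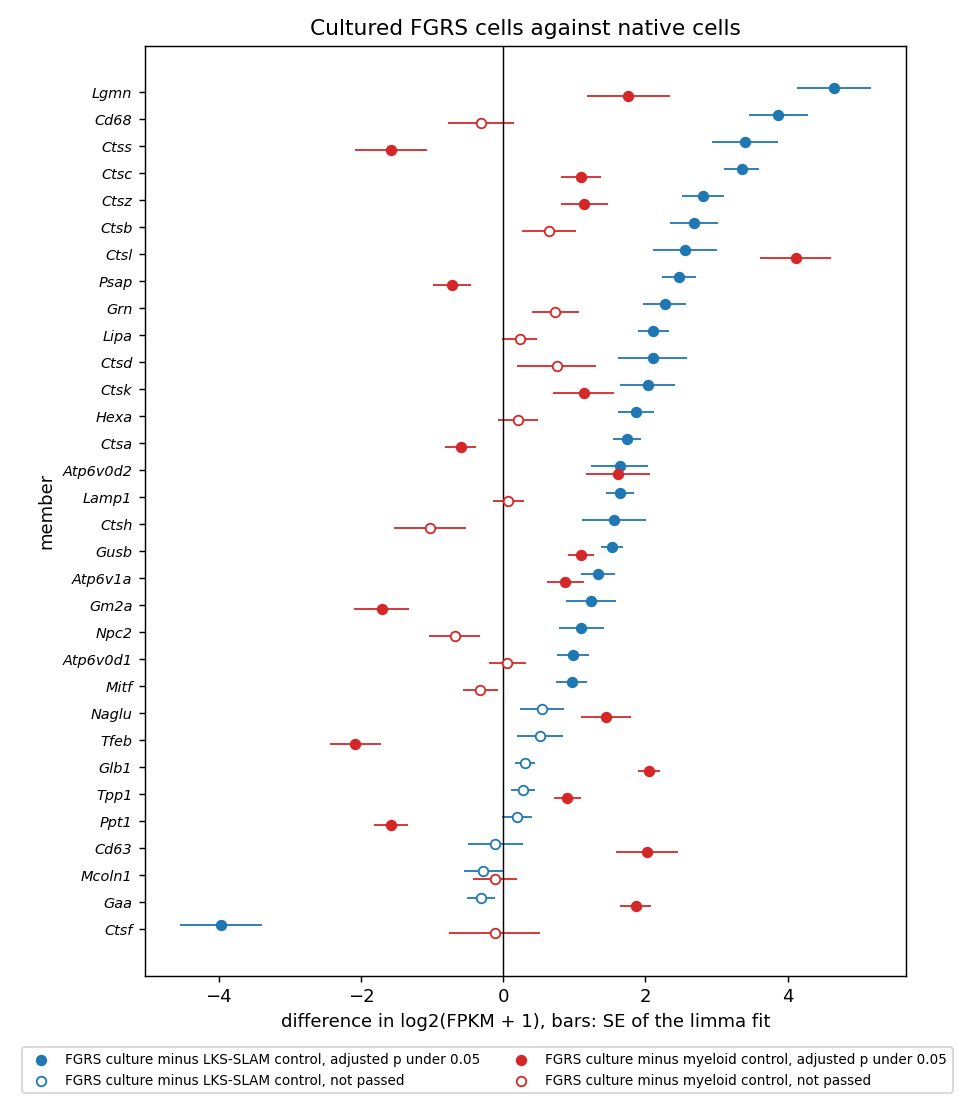
Difference in log2(FPKM + 1) of each member between the FGRS culture (n = 3) and LKS-SLAM controls (blue, n = 3) or myeloid controls (red, n = 2), with bars for the standard error of the limma fit and filled points for adjusted p under 0.05. Blue points lie right of 0 for most members, from Lgmn at 4.65 down to Ctsf at -3.97, while red points spread to both sides, with Ctsl at 4.11 and Tfeb at -2.08 at the ends.

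With the comparisons among the culture, myeloid controls and LKS-SLAM controls side by side, 11 members were higher in both the FGRS culture and myeloid controls than in LKS-SLAM controls and did not pass the test between the culture and myeloid controls: Lamp1, Cd68, Ctsb, Ctsd, Ctsh, Hexa, Grn, Lipa, Npc2, Mitf and Atp6v0d1. For Ctsc, Ctsz, Lgmn and Gusb the FGRS culture was above myeloid controls and these above LKS-SLAM controls. For Ctsa, Ctss, Psap and Gm2a the order was myeloid, FGRS, LKS-SLAM, each step passing the test. Cd63, Glb1, Gaa, Naglu and Tpp1 were lower in myeloid than in LKS-SLAM controls and higher in the FGRS culture than in myeloid controls. Ctsl was highest in the FGRS culture and lowest in myeloid cells. Ctsk, Atp6v0d2 and Atp6v1a passed the test as higher in the FGRS culture than in both. Against myeloid controls, 9 of 12 alternatives ended the call of Ctsk, 2 of 12 that of Atp6v0d2 and 2 of 13 that of Atp6v1a. Among these 3 groups, Ppt1 and Tfeb were high in myeloid cells alone and Ctsf in LKS-SLAM cells alone, and Mcoln1 passed none of the 3 tests.

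The membrane proteins behaved differently from one another. Cd68, a heavily glycosylated protein typical of macrophage endosomes and lysosomes, was at 72.9, 301 and 284 FPKM in FGRS replicates 1, 2 and 3, 11.9, 9.95 and 13.3 in LKS-SLAM controls and 229 and 228 in myeloid controls. All FGRS libraries lay above all LKS-SLAM controls, replicate 1 below the myeloid controls and the other 2 above them. The mean was 18.7-fold that of LKS-SLAM controls (difference 3.87 ± 0.41 SE on the log2(FPKM + 1) scale, adjusted p = 3.36e-07, limma). The difference from myeloid controls was -0.31 ± 0.46 (adjusted p = 0.609). Lamp1, a major glycoprotein of the lysosomal membrane, was at 186, 394 and 358 FPKM in the FGRS culture, 109.9, 90.5 and 86.0 in LKS-SLAM controls and 282 and 283 in myeloid controls. It rose by 1.64 ± 0.20 over LKS-SLAM controls (adjusted p = 2.05e-06). Cd63, a tetraspanin of late endosomes and secretory granules, was at 170.4, 322 and 271 FPKM in the FGRS culture and 319.7, 333 and 175 in LKS-SLAM controls. The values overlapped, with a difference of -0.11 ± 0.39 (95% interval -0.92 to 0.71). It was 58.1 and 61.3 FPKM in myeloid controls and no more than 0.798 in any B or T cell library. All 3 FGRS libraries lay above the myeloid controls, by 2.02 ± 0.44 (adjusted p = 0.00042, limma).

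The largest rise of the set over LKS-SLAM controls was in a cysteine protease. Lgmn, legumain, an endopeptidase that cuts after asparagine and activates other cathepsins (chr12:102394084-102439813, - strand, mm10), was at 74.7, 335 and 231 FPKM in the FGRS culture, 6.19, 4.86 and 7.90 in LKS-SLAM controls and 47.8 and 57.5 in myeloid controls. Every FGRS library exceeded every library of both native groups, and replicate 1 was nearest to them. The difference was 4.65 ± 0.52 against LKS-SLAM controls, where the means differed 33.8-fold (adjusted p = 7.03e-07, limma). Against myeloid controls it was 1.76 ± 0.58 (0.0128), a call that leaving out single libraries ended, as given above. Ctsc, dipeptidyl peptidase I, which activates the serine proteases of granules, was at 145, 267 and 264 FPKM in the culture, 24.8, 18.5 and 18.6 in LKS-SLAM controls and 107 and 96.2 in myeloid controls. Here too no libraries overlapped, with differences of 3.35 ± 0.25 (10.9-fold, adjusted p = 2.41e-09) and 1.09 ± 0.28 (0.00195). Ctsz, a carboxypeptidase, was at 319, 565 and 567 FPKM in the culture, 63.2, 71.7 and 63.5 in LKS-SLAM controls and 191 and 234 in myeloid controls. The groups again did not overlap, and the differences were 2.81 ± 0.29 (7.31-fold, adjusted p = 2.88e-07) and 1.14 ± 0.33 (0.00467).

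Cathepsins B, L and S set the FGRS culture against the native cells in 3 different ways. Ctsb, a broad endo- and exopeptidase, was at 129, 600.2 and 511 FPKM in the culture, 55.9, 53.4 and 48.4 in LKS-SLAM controls and 208 and 226 in myeloid controls. FGRS replicate 1 was below and replicates 2 and 3 above the myeloid libraries. Its difference was 2.68 ± 0.34 from LKS-SLAM controls (7.87-fold, adjusted p = 3.52e-06, limma) and 0.65 ± 0.38 from myeloid controls (95% interval -0.14 to 1.45). Ctsl, an endopeptidase that macrophages and thymic epithelium use, was at 62.5, 345 and 303 FPKM in the culture, 40.2, 29.3 and 25.6 in LKS-SLAM controls and 9.85 and 9.96 in myeloid controls. The groups were ordered without overlap, the culture 23.9-fold above myeloid controls in mean level (difference 4.11 ± 0.50, adjusted p = 4.46e-07). Ctss, the endopeptidase that trims the MHC class II invariant chain, was at 138, 405 and 375 FPKM in the culture and 16.8, 16.3 and 57.5 in LKS-SLAM controls, where replicate 3 was high. It was at 824 and 824 in myeloid controls and 397, 403 and 370.4 in B cell controls. The culture was above stem cells by 3.40 ± 0.46 (10.1-fold, adjusted p = 6.13e-06) and below myeloid cells by a fitted difference of -1.58 ± 0.51 (0.0112).

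**Figure D3:**
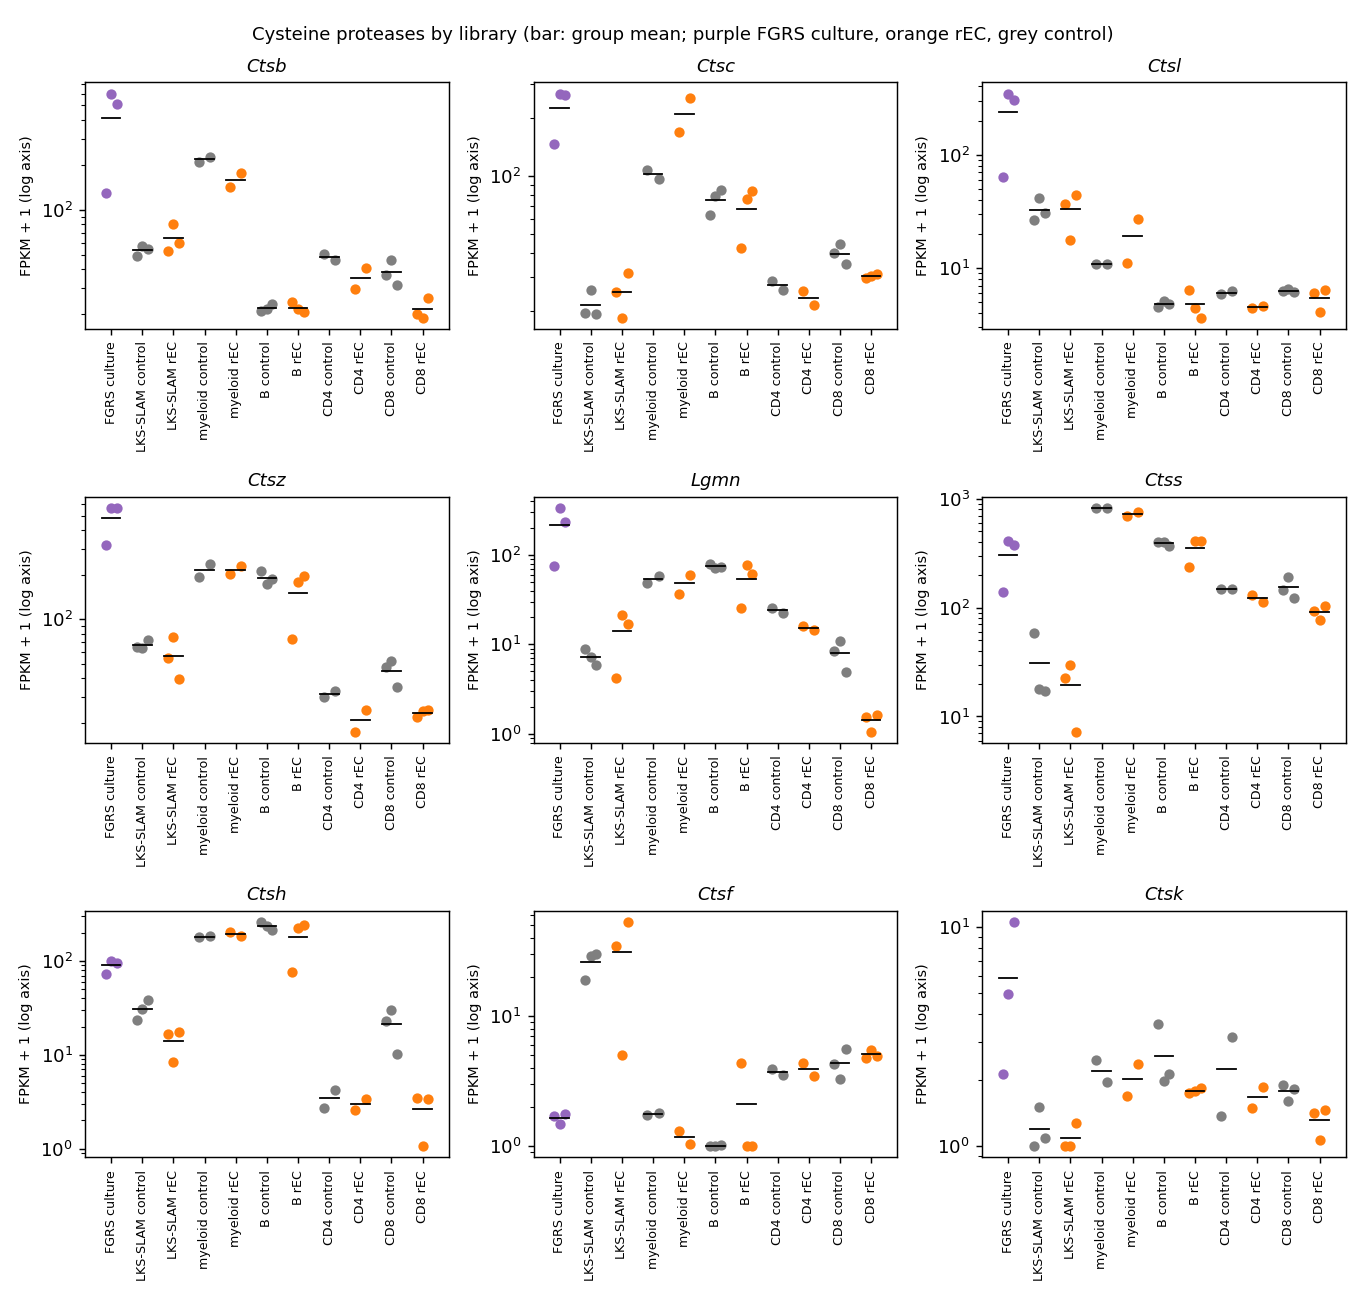
FPKM + 1 (log axis) of the 9 cysteine proteases in every grouped library (points) with the group mean (bar), purple for the FGRS culture, orange for rEC and grey for control groups. The FGRS points of Ctsb, Ctsc, Ctsl, Ctsz and Lgmn reach the top of their panels with replicate 1 lowest, Ctss and Ctsh are highest in myeloid or B cells, and Ctsf is highest in the LKS-SLAM groups.

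The remaining cysteine proteases were Ctsh, Ctsk and Ctsf. Ctsh, an aminopeptidase, ranged from 72.5 to 99.9 FPKM in the culture, 22.6 to 37.4 in LKS-SLAM controls, 179 to 184 in myeloid controls and 214 to 260.1 in B cell controls. It rose by 1.56 ± 0.45 over LKS-SLAM controls (adjusted p = 0.00699, limma). Ctsk, the collagen-degrading cathepsin of osteoclasts, was low everywhere, at 1.14, 3.96 and 9.54 FPKM in the culture. Myeloid controls, at 0.956 and 1.46 FPKM, overlapped the culture (fitted difference 1.13, 95% interval 0.24 to 2.03). In LKS-SLAM controls Ctsk was at most 0.509, and the culture was above these by 2.03 ± 0.39 (adjusted p = 0.000233, limma). Of a list of 9 osteoclast markers, 6 were tested, of which 5 fell and 1 rose. The list summed to 34.1 to 61.4 FPKM in the culture and 476 to 620.3 in LKS-SLAM controls. It also summed to 260 to 291 FPKM in B cell controls, so the sum is not specific to osteoclasts. The markers Oscar, Dcstamp and Calcr were under 1 FPKM in every library. The part of osteoclasts in the Ctsk values was not tested. Ctsf, whose product degrades proteins in the lysosome and carries a long propeptide, went the other way, at 0.695, 0.475 and 0.757 FPKM in the culture and 28.3, 29.3 and 17.9 in LKS-SLAM controls. The 3 culture libraries were all below the controls, the means differing 39.2-fold, with a fitted difference of -3.97 ± 0.58 (adjusted p = 1.5e-05). Myeloid controls, at 0.743 and 0.811 FPKM, differed from the culture by a fitted -0.12 ± 0.64 (95% interval -1.46 to 1.22) and overlapped it. The summed FPKM of all 9 proteases was 1974 ± 902 (SD, n = 3) in the culture, 263 ± 2.51 (SD, n = 3) in LKS-SLAM controls, 1601 ± 45.5 (SD, n = 2) in myeloid controls and 993 ± 40.6 (SD, n = 3) in B cell controls.

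The other peptidases were Ctsd, Ctsa and Tpp1. Ctsd, the aspartic protease cathepsin D, was at 339, 1164 and 1108 FPKM in the culture, 189, 173 and 168 in LKS-SLAM controls and 410.1 and 499 in myeloid controls. Replicate 1 lay between the native groups and replicates 2 and 3 above both. The rise over LKS-SLAM controls was 2.10 ± 0.49 (adjusted p = 0.00149, limma). Ctsa, a carboxypeptidase that also protects other lysosomal enzymes in a complex, was at 81.9, 173 and 158 FPKM in the culture, 41.3, 36.2 and 38.1 in LKS-SLAM controls and 201 and 198 in myeloid controls. The groups did not overlap, the culture lying between the native groups (1.74 ± 0.20 and -0.60 ± 0.22, adjusted p = 8.14e-07 and 0.0236). The call against myeloid controls was lost without any one of 3 libraries, as given above. Tpp1, a tripeptidyl peptidase, was at 29.5 to 44.2 FPKM in the culture and differed by 0.28 ± 0.17 from LKS-SLAM controls (95% interval -0.07 to 0.63) and by 0.90 ± 0.19 from myeloid controls (0.000299).

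Of the 5 glycosidases, 2 rose in the culture over stem cell controls, and the other 3 did not pass that test but were above blood myeloid controls. Glb1, beta-galactosidase, was at 32.9, 35.3 and 33.3 FPKM in the FGRS culture, 28.9, 26.3 and 27.0 in LKS-SLAM controls and only 7.94 and 6.91 in myeloid controls. Every culture library was above every stem cell control, but by a difference that did not pass the test (0.30 ± 0.14, adjusted p = 0.0859). Both were above every myeloid library, the culture by 2.05 ± 0.16 (adjusted p = 5.8e-10, limma). Gaa, acid alpha-glucosidase, which degrades glycogen, was at 43.5, 39.4 and 37.1 FPKM in the culture, 51.4, 48.5 and 49.1 in LKS-SLAM controls and 10.9 and 9.70 in myeloid controls. The culture was below every LKS-SLAM control, although the difference of -0.31 ± 0.20 did not pass the test (adjusted p = 0.212). It was 1.86 ± 0.22 above myeloid controls (3.58e-07). Naglu, which removes N-acetylglucosamine from heparan sulfate, was at 10.4, 23.1 and 21.4 FPKM in the culture, 12.2, 8.97 and 13.9 in LKS-SLAM controls and 5.69 and 5.77 in myeloid controls. Culture and stem cell libraries overlapped (difference 0.55 ± 0.31, 95% interval -0.10 to 1.20). The culture was above the myeloid controls by 1.44 ± 0.35 (0.00121). Unlike these 3, Hexa, a subunit of beta-hexosaminidase (113 to 249 FPKM in the culture, 35.7 to 64.5 in LKS-SLAM controls), and Gusb, beta-glucuronidase (104 to 148 and 34.4 to 50.4), rose over LKS-SLAM controls by 1.87 ± 0.25 and 1.53 ± 0.16 (adjusted p = 6.37e-06 and 3.92e-07). Gusb was also above myeloid controls, by 1.09 ± 0.18 (2.26e-05).

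Lipid-handling members were abundant in both the culture and the myeloid cells. Psap, the precursor of the saposins that help degrade sphingolipids, had the highest level of all members in the culture, at 758, 1685 and 1928 FPKM, against 238, 235 and 255 in LKS-SLAM controls and 2198 and 2247 in myeloid controls. The culture was above stem cells by 2.47 ± 0.24 (adjusted p = 1.42e-07, limma). It was below myeloid cells by a fitted -0.72 ± 0.27 (0.0283), without overlap in either case. Gm2a, the activator needed for GM2 ganglioside breakdown, was at 54.2, 54.2 and 57.1 FPKM in the culture, 18.6, 15.8 and 40.8 in LKS-SLAM controls and 177 and 189 in myeloid controls. The culture lay between the native groups (1.23 ± 0.35 and -1.71 ± 0.39, adjusted p = 0.00626 and 0.000657). Ppt1, a thioesterase that removes palmitate from proteins, was at 36.8, 49.8 and 40.9 FPKM in the culture, 36.8, 40.8 and 33.4 in LKS-SLAM controls and 136 and 122 in myeloid controls. Culture and stem cells overlapped, with a difference of 0.19 ± 0.21 (95% interval -0.25 to 0.63). Both lay below the myeloid libraries, the culture by a fitted -1.58 ± 0.24 (6.51e-06). Grn, the precursor of granulins, was at 156 to 384 FPKM in the culture and 52.4 to 62.4 in LKS-SLAM controls. Lipa, acid lipase, was at 44.5 to 86.5 and 12.5 to 16.6. Npc2, which carries cholesterol inside the lysosome, was at 73.5 to 107 and 42.0 to 45.7. These 3 rose over LKS-SLAM controls by 2.27 ± 0.30, 2.11 ± 0.22 and 1.10 ± 0.32 and did not pass the test against myeloid controls (0.73 ± 0.33, 0.23 ± 0.25 and -0.68 ± 0.36).

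A calcium channel and 3 pump subunits complete the membrane machinery among the members. Mcoln1, the channel mucolipin, was at 19.9, 21.1 and 19.2 FPKM in the culture, 25.3, 27.1 and 21.5 in LKS-SLAM controls and 23.3 and 20.2 in myeloid controls. The differences were -0.28 ± 0.27 (95% interval -0.85 to 0.29) and -0.11 ± 0.31 (-0.74 to 0.53). Atp6v0d1, the widely expressed form of the d subunit in the membrane sector of the pump, was at 67.6, 125 and 117 FPKM, 47.8, 48.3 and 53.6 and 98.7 and 93.0 in the same groups. It was above LKS-SLAM controls in every culture library, by 0.98 ± 0.23 (adjusted p = 0.00152, limma). It differed by 0.06 ± 0.26 from myeloid controls (95% interval -0.48 to 0.59). Its paralog Atp6v0d2, known from osteoclasts and some macrophages, was listed at 0 in FGRS replicate 1 and at 4.03 and 5.31 FPKM in replicates 2 and 3. LKS-SLAM controls had 0, 0 and 0.0590, myeloid controls 0 and 0.0694, and CD4+ controls 2.28 and 1.40. The culture's libraries overlapped each native group. The fitted rises of 1.64 ± 0.40 and 1.61 ± 0.45 passed the test (0.00219 and 0.0037) but rest on replicates 2 and 3. Atp6v1a, the catalytic subunit of the pump, was at 56.3, 69.7 and 84.0 FPKM in the culture, above every LKS-SLAM control (29.2 or less) and myeloid control (37.8 or less), with differences of 1.33 ± 0.24 and 0.87 ± 0.26 (adjusted p = 0.000119 and 0.00697).

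Of the 2 transcription factors, Mitf rose over stem cells and Tfeb did not pass that test. Tfeb (chr17:47737030-47792419, + strand, mm10) was at 11.8, 15.7 and 16.4 FPKM in the FGRS culture, 9.14, 7.33 and 14.0 in LKS-SLAM controls, 65.0 and 64.5 in myeloid controls and 63.1, 59.6 and 65.4 in B cell controls. Culture and stem cell libraries overlapped (difference 0.52 ± 0.32, 95% interval -0.14 to 1.18, adjusted p = 0.185, limma). The myeloid mean was 4.42-fold that of the culture (fitted difference -2.08 ± 0.36, adjusted p = 3.18e-05). Myeloid and B cell controls differed by 0.05 ± 0.36 (95% interval -0.69 to 0.79). Mitf, the family member that directs melanocyte and mast cell genes and acts in osteoclasts, was at 2.53, 4.02 and 4.70 FPKM in the culture, 0.833, 1.38 and 2.16 in LKS-SLAM controls and 5.43 and 4.28 in myeloid controls. It was at most 0.782 in any lymphocyte library. The rise over stem cells was 0.96 ± 0.22 (0.00149), without overlap. The difference from myeloid controls was -0.32 ± 0.25 (95% interval -0.84 to 0.19). The related Tfec, no member of the set, was at 24.3 FPKM in mean in the culture and 3.51 in myeloid controls (difference 2.46 ± 0.46 SE, adjusted p = 8.28e-05). Tfe3 was 0.96 above LKS-SLAM controls and -1.08 against myeloid controls, as a signed difference. These values are RNA levels, and the activity of MiT/TFE factors, which is largely set by their location in the cell, was not measured.

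**Figure D4:**
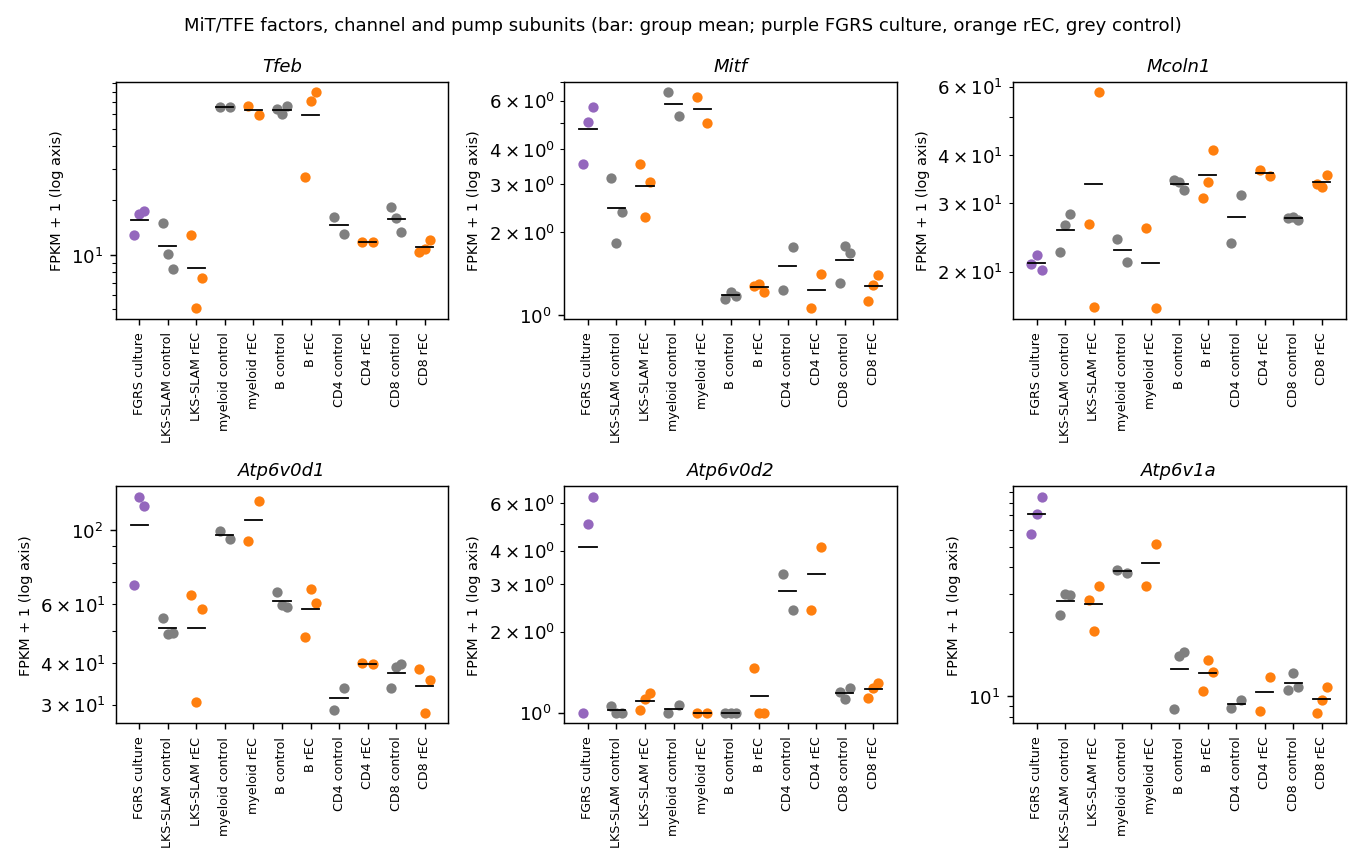
FPKM + 1 (log axis) of Tfeb, Mitf, Mcoln1, Atp6v0d1, Atp6v0d2 and Atp6v1a in every grouped library (points) with the group mean (bar), colours as for the cysteine proteases. Tfeb stands high in the myeloid and B groups, with B rEC replicate 1 below the other B cells at 25.8 FPKM, and low in the FGRS culture, whereas Mitf and Atp6v1a are low in all lymphocytes.

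Other lysosomal genes, taken from lists that leave out the 32 members, gave calls in both directions in the same fit. Over all genes, 17.1% were higher and 31.7% lower against LKS-SLAM controls, and 37.8% and 20.3% against myeloid controls. Against LKS-SLAM controls, 11 of 15 further V-ATPase genes rose and none fell (Atp6v0b 1.58, Atp6v0c 1.58, Atp6v0e 1.44, Atp6ap2 1.25). Likewise 9 of 19 further membrane proteins rose and 2 fell (the metal transporter Slc11a1 3.75, Lamp2 1.39, Slc38a9 -1.28). Of the enzymes, 11 of 26 further hydrolases rose and 8 fell (Scpep1 2.50, Gla 2.17, Ctso -1.83, Galc -1.72). Of 18 sorting genes 5 rose and 3 fell, and of 18 regulators 8 rose and 4 fell. Of 8 cystatins and stefins, which inhibit cysteine proteases, 4 rose and 1 fell, with Cstb at 345 FPKM in mean against 50.6. Against myeloid controls, 4 V-ATPase genes rose and 3 fell, 3 membrane proteins rose and 8 fell (Slc11a1 -3.31, Laptm4b 3.16). Among hydrolases 4 rose and 5 fell (Gla 2.41, Ids -2.45). Sorting genes gave 8 higher and 3 lower, regulators 8 higher and 2 lower, and inhibitors 2 higher and 4 lower, the neutrophil stefin Stfa2l1 by -7.61 and Cst7 by 5.19.

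Marker lists of other cell types moved in different directions. All 12 macrophage markers of the list reached 1 FPKM in the culture, 10 in LKS-SLAM controls and 8 in myeloid controls, and none was at 0 throughout these groups. Of these, 10 rose in the FGRS culture over LKS-SLAM controls and none fell (Gpnmb 5.83, C1qb 4.92, Trem2 4.56). Against myeloid controls 6 rose and 2 fell. The 4 neutrophil granule proteases and peroxidase genes (Mpo, Elane, Prtn3, Ctsg) summed to 2463, 4790 and 4386 FPKM in the culture, 623 to 2146 in LKS-SLAM controls and 5.30 to 7.01 in myeloid controls. All 4 were higher than in myeloid controls. The 10 neutrophil markers summed to 182, 4005 and 1282 FPKM in culture replicates 1, 2 and 3, and to 1285 to 1737 in LKS-SLAM controls. In myeloid controls they summed to 32006 to 35524. Of 2 melanocyte and 7 mast cell or basophil markers tested, 0 and 1 rose over LKS-SLAM controls and 0 and 2 fell. The part of these markers' cells in the members' differences was not tested. FGRS replicate 1 had a macrophage sum of 243 FPKM, within the range of the LKS-SLAM controls, but single markers differed from the sum. In that replicate Gpnmb was at 17.0 FPKM, C1qb at 18.6 and Adgre1 at 6.67. The LKS-SLAM controls had at most 0.246, 3.83 and 3.60. The other macrophage markers are not given by library here. Without FGRS replicate 1, 25 members were higher and 1 lower than in the LKS-SLAM controls.

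The comparisons of the culture with rEC groups use the same FGRS libraries, so their values are set beside those above and not added to them. Against LKS-SLAM rEC, 26 members were higher in the culture, 1 lower and 5 not passed, where 45% of all genes passed (17.2% higher, 27.8% lower), and the median was 1.71 against -0.14 over all genes (limma, Benjamini-Hochberg). Ctss, at 21.4, 28.4 and 6.22 FPKM in LKS-SLAM rEC, differed by 4.04 ± 0.46. Lgmn, at 3.20, 20.4 and 15.8, differed by 3.98 ± 0.52 and Ctsc, at 24.1, 17.5 and 30.4, by 3.16 ± 0.25. Each of these lay wholly below the culture, as did Ctsz (53.6, 75.3 and 38.3 FPKM, 3.10 ± 0.29), Cd68 (12.3, 29.97 and 25.6, 3.06 ± 0.41) and Ctsh (15.7, 7.47 and 16.5, 2.73 ± 0.45). Ctsf, at 34.0, 4.03 and 52.1 FPKM, was the fall (-3.69 ± 0.58), with LKS-SLAM rEC replicate 2 far below the other 2 libraries. Fitted on these 6 libraries alone, 15 members were higher and none lower. Without FGRS replicate 2, Glb1 (adjusted p = 0.0967, limma), Naglu (0.166), Tfeb (0.0548) and Mitf (0.0617) were lost. Without FGRS replicate 3 or LKS-SLAM rEC replicate 2 the same 4 were lost (0.0653, 0.139, 0.0604 and 0.0954, and 0.172, 0.291, 0.0826 and 0.0623). Without LKS-SLAM rEC replicate 3, Tfeb was lost (0.0509).

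Against myeloid rEC, 13 members were higher, 5 lower and 14 not passed, where 58.9% of all genes passed (39.4% higher, 19.6% lower; limma, Benjamini-Hochberg), and the median was 0.23 against 0.31. Here too the counts were near the shares over all genes. The largest rises were Ctsl (10.2 and 26.1 FPKM in myeloid rEC, difference 3.44 ± 0.50), Cd63 (45.9 and 42.7, 2.45 ± 0.44), Gaa (8.06 and 7.81, 2.20 ± 0.22) and Glb1 (7.01 and 8.30, 2.01 ± 0.16). They were followed by Lgmn (35.8 and 58.6, 1.95 ± 0.58) and Naglu (6.18 and 7.83, 1.20 ± 0.35). The falls were Tfeb (65.7 and 58.5 FPKM, -2.02 ± 0.36), Gm2a (171 and 186, -1.67 ± 0.39), Ppt1 (134 and 137, -1.66 ± 0.24), Ctss (696 and 754, -1.39 ± 0.51) and Ctsa (193 and 186, -0.53 ± 0.22). Ctsc, which separated the culture from myeloid controls, was at 168 and 253 FPKM in myeloid rEC and differed by 0.08 ± 0.28 (95% interval -0.51 to 0.66). Across all genes 66.8% of the calls were higher in the culture as deposited, 50.2% after quantile normalization and 56.4% after upper-quartile scaling, with 9 higher and 8 lower and 10 higher and 7 lower among the members. Without myeloid rEC replicate 1, 10 calls were left, with Ctsa, Ctsb, Ctsk, Ctss, Lgmn, Naglu, Tpp1 and Atp6v1a lost (adjusted p = 0.155, 0.12, 0.136, 0.0769, 0.0818, 0.0589, 0.0737 and 0.272, limma). Without myeloid rEC replicate 2 or FGRS replicate 1, Ctsa (0.114 and 0.352) and Ctss (0.102 and 0.146) were lost. Without FGRS replicate 2 the call of Ctsb was lost (0.113), and without FGRS replicate 3 those of Ctsb (0.0883), Ctsk (0.122) and Atp6v1a (0.0666).

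Among native cells, the members separated blood myeloid cells from stem cells in both directions. Myeloid controls had 21 members higher, 7 lower and 4 not passed against LKS-SLAM controls, where 66.5% of all genes passed (17.4% higher, 49.1% lower), and a median of 1.55 against -0.61 over all genes (limma, Benjamini-Hochberg). Rises were led by Ctss (4.98 ± 0.51), Cd68 (4.18 ± 0.46), Psap (3.19 ± 0.27), Gm2a (2.94 ± 0.39), Lgmn (2.89 ± 0.58) and Tfeb (2.60 ± 0.36). Falls were led by Ctsf (-3.85 ± 0.64), Gaa (-2.17 ± 0.22), Cd63 (-2.13 ± 0.44), Glb1 (-1.75 ± 0.16), Ctsl (-1.56 ± 0.50) and Naglu (-0.90 ± 0.35), with the values of each library given above. Leaving out any 1 of the 5 libraries ended the call of Ctsd (adjusted p = 0.0534 to 0.152, limma). Naglu was lost without LKS-SLAM control replicate 1 (0.0635) or 3 (0.0857) and without myeloid control replicate 1 (0.101) or 2 (0.0951). Gusb was lost without LKS-SLAM control replicate 3 (0.2) and myeloid control replicate 1 (0.193) or 2 (0.0736), and Tpp1 without myeloid control replicate 2 (0.0559). Across all genes 26.2% of the calls were higher in myeloid cells as deposited and 48.8% after quantile normalization, which moved the median of all genes from -0.61 to -0.03.

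Against B cell controls, 17 members were higher in myeloid controls, 2 lower and 13 not passed, where 53% of all genes passed (17.2% higher, 35.8% lower; limma, Benjamini-Hochberg), and the median was 1.20 against -0.25. Cd63 was at 0.0632, 0.233 and 0.248 FPKM in the B cell controls and differed most (5.69 ± 0.44), followed by Cd68 (4.82, 7.49 and 6.61, 4.99 ± 0.46), Ctsd (30.4, 33.3 and 37.3, 3.71 ± 0.55) and Ctsb (19.9, 20.6 and 22.4, 3.31 ± 0.38). Grn, at 18.1, 17.5 and 18.4 FPKM in B cells, and Psap, at 282, 306 and 324, were also higher in myeloid cells (3.11 ± 0.33 and 2.87 ± 0.27). Naglu (19.2, 15.8 and 16.0, -1.42 ± 0.35) and Glb1 (9.67, 10.8 and 10.9, -0.45 ± 0.16) were lower. The proteases linked to antigen processing were nearer: Ctss differed by 1.08 ± 0.51 (95% interval 0.02 to 2.14), Lgmn by -0.49 ± 0.58 (-1.69 to 0.72) and Ctsh by -0.38 ± 0.50 (-1.42 to 0.66). The call of Glb1 was lost without B control replicate 2 (adjusted p = 0.0515, limma) or 3 (0.0557) or myeloid control replicate 2 (0.167). Under quantile normalization the difference was -0.05. That of Atp6v0d1 was lost without B control replicate 2 (0.0732) or 3 (0.0771) or myeloid control replicate 1 (0.147) or 2 (0.0981). T cells were set apart by single members. In CD8+ controls Ctsd was at 346, 289 and 278 FPKM and in CD4+ controls at 233 and 190.5, above every B cell control, whereas Ctsh, at 1.70 and 3.18 in CD4+ controls, lay far below.

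Derived and wild-type cells of the same type were compared in 5 cell types, and members passed the test in CD8+ T cells only. None passed the test between rEC and control in LKS-SLAM cells (1.32% of all genes passed), myeloid cells (0.227%), B cells (0%) or CD4+ T cells (0.0213%; limma, Benjamini-Hochberg). At an unadjusted p under 0.05 there were 1, 1, 0 and 1 members in these 4 comparisons, against 1325, 526, 398 and 417 of the 14083 genes. They were Ctsh in LKS-SLAM cells (29.9, 37.4 and 22.6 FPKM in controls and 15.7, 7.47 and 16.5 in rEC, difference -1.17 ± 0.45, adjusted p = 0.323), Ctsc in myeloid cells (107 and 96.2 and 168 and 253, 1.02 ± 0.31, 0.435), and Glb1 in CD4+ cells (-0.47 ± 0.17, adjusted p = 1). The differences of all 32 members ranged from -1.17 to 0.81 in LKS-SLAM cells, -0.60 to 1.02 in myeloid cells, -0.60 to 0.79 in B cells and -0.66 to 0.56 in CD4+ cells. The 95% interval lay within 1 log2 unit of 0 for 23, 18, 23 and 14 members, and reached beyond it for the rest. In myeloid cells 9 members were wholly higher in rEC and 9 wholly lower (15.6% and 28.6% of all genes), in CD4+ cells 3 and 20 (16.1% and 21.1%), in LKS-SLAM cells 0 and 1 (2.07% and 4.37%) and in B cells 0 and 1 (4.96% and 1.98%). B rEC replicate 1, the library with T cell markers, had Ctsd at 211 FPKM against 30.4 to 37.3 in B controls and 31.9 and 29.9 in the other rEC libraries. It lay below the other 5 B cell libraries for 18 members (24.2% of all genes tested) and above them for 8 (32.9%). LKS-SLAM rEC replicate 2 lay below the other 5 LKS-SLAM libraries for 20 members (42.4% of all genes tested) and above them for 7 (29.4%). The part of the erythroid and T cell marker genes in these values was not tested. Without both libraries, Ctsf (0.75, adjusted p = 0.0356) and Gaa (0.38, adjusted p = 0.0495) passed the test in LKS-SLAM cells, against fitted differences of -0.28 ± 0.58 and 0.00 ± 0.20 with them. Ctsc then passed in myeloid cells (1.02, adjusted p = 0.0493).

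In CD8+ T cells, 2 cysteine proteases were lower in rEC than in control libraries. Ctsh was at 22.3, 29.3 and 9.27 FPKM in CD8+ controls and 2.48, 0.0642 and 2.37 in CD8+ rEC, and Lgmn at 7.41, 10.0 and 3.88 and 0.565, 0.0546 and 0.641. In both cases every rEC library was below every control. The fitted differences were -3.06 ± 0.45 (adjusted p = 0.00103, limma) and -2.46 ± 0.52 (0.0162), the only calls among the members, where 1.13% of all genes passed (0.987% lower). At an unadjusted p under 0.05 there were 9 members, against 1050 genes. In all, 17 members were wholly lower in rEC and 1 wholly higher (15.7% and 14.9% of all genes). B cell markers moved with them: the 5 summed to 197 to 469 FPKM in CD8+ controls, 6.74 to 61.8 in CD8+ rEC and 5794 to 6554 in B cell controls. All 5 passed the test as lower while none was at 0 in every rEC library. Macrophage markers summed to 33.1 to 155 FPKM in CD8+ controls and 11.3 to 22.7 in CD8+ rEC, where Mrc1 and Cd14 were listed at 0. B cell controls had Ctsh at 260.1, 238 and 214 and Lgmn at 79.0, 71.0 and 71.6 FPKM. The part of these marker genes' cells in the CD8+ differences was not tested. The Lgmn call was lost without CD8+ control replicate 1 (adjusted p = 0.0811, limma) or 2 (0.15) or CD8+ rEC replicate 2 (0.121), and no member passed when only the 6 CD8+ libraries were fitted. An F test of whether the rEC minus control difference varied over the 5 cell types called no member (0.277% of all genes, 39, passed) and 5 at an unadjusted p under 0.05, with Ctsh at an adjusted p of 0.124, or 0.0037 without both libraries that stood apart.

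**Figure D5:**
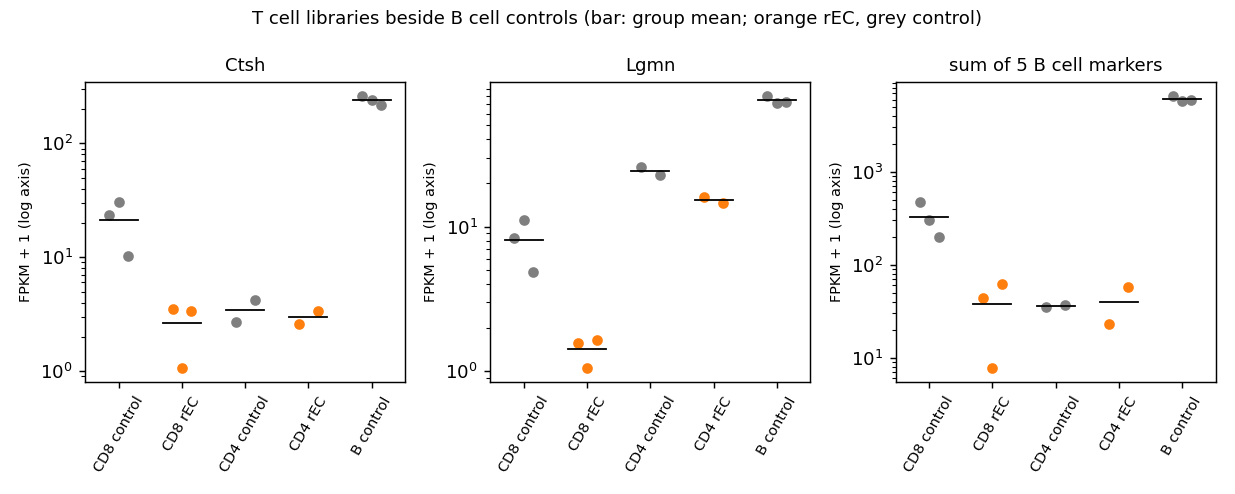
FPKM + 1 (log axis) of Ctsh, Lgmn and the sum of 5 B cell markers in CD8+ and CD4+ T cell libraries and B cell controls (points, with the group mean as a bar; orange rEC, grey control). In all 3 panels the CD8+ controls lie above the CD8+ rEC libraries and below the B cell controls.

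Across the 11 group means, likeness was measured as Pearson's r between a member's log2(FPKM + 1) and the mean of the other 31, a description with no test, since control and rEC groups of 1 cell type are alike and the members were chosen together. Hexa (0.99), Lamp1 (0.97), Grn (0.97) and Cd68 (0.94) followed the others most closely. Of the transcription factors, Mitf was at 0.92 and Tfeb at 0.37. Gaa (0.10), Glb1 (0.03) and Naglu (-0.08), the glycosidases that were low in myeloid cells, did not follow them, nor did Atp6v0d2 (-0.05). Ctsf (-0.41) and Mcoln1 (-0.88) ran opposite to the rest. Mcoln1 did so over a narrow range of 0.81 log2 units, from 34.95 FPKM in CD4+ rEC cells down to 19.44 in myeloid rEC. Both values are back-transformed from group means of log2(FPKM + 1). Group means of the other members spanned up to 8.06 log2 units, reached by Cd63.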

How the data were processed

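Poly-A RNA of FACS-sorted cells was sequenced as 51 bp paired-end reads from non-stranded libraries, per the labels' protocols. Per the submitters' processing notes, the tools were TopHat2 2.1.0 and Cufflinks 2.2.1, with bcl2fastq 2.17, Trimmomatic 0.36 and FastQC 0.11.5, and the build was mm10. The authors deposited 1 table of FPKM per gene symbol for all 30 libraries. Normalization between libraries, annotation and read totals are not given in the sources used here, and reads of overlapping antisense genes cannot be told apart without strand.

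From these FPKM values, log2(FPKM + 1) was fitted with limma 3.58.1 (R 4.3.3; 1 mean per group, trended empirical Bayes, 18 residual degrees of freedom) over the 14083 genes that reached 1 FPKM in 2 or more of the 29 grouped libraries, with two-sided Benjamini-Hochberg adjustment over all of them at 0.05. Of the table's genes, 3758 were at 0 in every grouped library. Differences are on the log2(FPKM + 1) scale, which understates changes of low genes, with standard errors from the fit. Groups followed the labels. Python 3.11.15, numpy 2.4.6, pandas 2.3.3 and matplotlib 3.10.9 were used. Gene positions come from GENCODE M21. Tested on data simulated for the comparison of the FGRS culture with LKS-SLAM controls, the fit recovered 51% of genes changed by 1 log2 unit and 89% of those changed by 2 among 14083, with 9 false calls. For the comparison with myeloid controls these were 47% and 91%, with 7 false calls. The simulation gave each gene 1 noise level for all groups and changed 100 genes by each amount. In the data 48.8% of genes passed against LKS-SLAM controls. The spread also differed between groups, as for Ctsb (SD 250.2 FPKM in the culture, 3.818 in LKS-SLAM controls), so the simulated rates may not hold.

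The members, the gene lists and the tests were chosen with earlier results of these data known. Every member is named. In each comparison, values in every library are given for up to 6 rises and 6 falls among the called members whose groups do not overlap, and for Tfeb, Mitf, Atp6v0d1 and Atp6v0d2 where the FGRS culture is compared with controls, and of each other list up to 4 of the largest called changes may be named. Values of a few further members were added. Alternatives were a pseudocount of 0.1, no filter or one at 5 FPKM, quantile and upper-quartile scaling, a fit of the compared libraries alone, a replicate block, and leaving out each replicate or both libraries that stood apart.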

Additional observations from a re-analysis of the deposited data

Results flagged for a closer look

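One B220+ library, titled as clone 47G1 primary and annotated as wild type, could not be placed in a group and was used in no comparison. Over all genes its log2(FPKM + 1) correlated at r = 0.995 with B rEC replicates 2 and 3, at 0.992 to 0.993 with the B controls and at 0.959 with B rEC replicate 1. Its members lay within the range of the 3 B cell controls in 17 cases, above it in 8 and below it in 7. Naglu, at 23.1 FPKM against 15.8 to 19.2 in the controls, Grn, at 20.4 against 17.5 to 18.4, and Mcoln1, at 39.4 against 31.5 to 33.5, stood above the controls. The library has no replicate, so these values carry no error and were not tested.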

How the results depend on the processing

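Of the members called in each comparison, 21 of 24 held their call under every alternative between the FGRS culture and LKS-SLAM controls, 8 of 19 against myeloid controls, 15 of 27 against LKS-SLAM rEC, 8 of 18 against myeloid rEC, 24 of 28 between myeloid and LKS-SLAM controls, 17 of 19 between myeloid and B controls, and neither of the 2 in CD8+ cells. With single replicates left out, the number of members called ran, in the same order, from 24 to 26, 13 to 20, 23 to 28, 10 to 18, 24 to 27, 17 to 19 and 1 to 2, and was 0 in every such fit of the other rEC and control comparisons. Fitting only the libraries compared gave 15 members against LKS-SLAM rEC and 0 in CD8+ cells, where fewer samples estimate the spread. Without both libraries that stood apart, 2 members passed between LKS-SLAM rEC and control, 1 between myeloid rEC and control, 4 in CD8+ cells (Ctsh, Lgmn, Ctsz and Glb1) and 1 in the F test. Among differences called with or without them, 1 changed sign there: Ctsf in LKS-SLAM rEC minus control. It was 0.75 (adjusted p = 0.0356, limma) without both libraries and -0.28 with them. Sign changes of differences called in neither fit were not counted. The cause of the change in Ctsf was not tested. Deviations of same-numbered replicates from their group means correlated at r of -0.17 to 0.24 over all genes. In groups of 2 libraries the deviations mirror each other. The only comparison with 3 pairs, FGRS culture with LKS-SLAM controls, gave -0.06, 0.07 and -0.09. These values cannot show whether same-numbered samples shared an animal or a batch. The replicate block gave 23 members between the FGRS culture and LKS-SLAM controls (Atp6v0d2 lost its call, adjusted p = 0.0774, limma), 11 against myeloid controls, 12 against myeloid rEC, 30 between myeloid and LKS-SLAM controls, 22 between myeloid and B controls and 0 between myeloid rEC and control. In CD8+ cells, where only titles ending in 1 and 2 recur in both groups, the replicate block over these 4 libraries gave 0 members. No paired analysis was possible because fewer than 2 replicate numbers are shared by the titles in the remaining comparisons. Quantile normalization moved the median of all genes by over 0.1 in several comparisons (-0.19 to 0.03 for the FGRS culture against LKS-SLAM controls, 0.25 to -0.01 against myeloid controls), and the share of higher calls between rEC and control from 5.38% to 43.6% in LKS-SLAM cells and from 12.6% to 27.8% in CD8+ cells. Values under 1 FPKM, such as those of Atp6v0d2 in most groups, are the least reliable, since read totals are unknown.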
